A study of Mus musculus with 3 samples.

Results

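Translation factors are the proteins that bring ribosome, messenger RNA and transfer RNA together and carry a ribosome from start codon to stop codon. The 67 genes described here are the protein-coding genes of the deposited tables whose symbol starts with Eif, Eef, Etf1, Gspt or Pabpc, out of 9822 genes in all. RefSeq for GRCm38.p6 holds 84 such genes, and 17 of them had no row in the count tables analysed. Thus 79.8% of these genes had a row, against 41.6% of all RefSeq protein-coding genes. The RNA came from platelets, the small blood cells without a nucleus that megakaryocytes shed, purified from the blood of BALB/c males, 20 weeks old, of the genotype Nxf1 wild type. There was 1 group of 3 libraries, replicates 1 to 3, each labelled as a batch of its own, so batch and sample cannot be told apart, and with no second condition the question is which factor RNAs these platelets held and at what level. The samples are described as independent, but no label ties each to its own animal, so SDs and p-values reflect only how far these libraries differ, which can be technical. Every listed gene had counts in at least 1 library. How genes were chosen for the tables is not given in the sources used here, so the counts of genes without a row are unknown.

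In initiation, eIF1, eIF1A, eIF3 and eIF5 gather on the small ribosomal subunit and eIF2 delivers the initiator tRNA. The eIF4 proteins load the mRNA: eIF4E binds the cap, eIF4A is a helicase, and eIF4G is the scaffold that also binds the poly(A)-binding protein. In elongation eEF1A brings each aminoacyl-tRNA and eEF2 moves the ribosome on, and the release factors eRF1 and eRF3 end the chain. Platelets cannot transcribe nuclear genes, but they inherit mRNA and ribosomes and are known to make some protein.

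The libraries held 26974129, 25189231 and 26111636 counts in replicates 1, 2 and 3, and levels are given as counts per 1e+06 counts of that total (CPM) or, where genes are compared with each other, as CPM per kilobase of the deposited gene length. A count of 0 in a listed gene would have allowed up to 0.111, 0.119 and 0.115 CPM in replicates 1, 2 and 3. This is 3 counts per library and covers counting error only. The lowest member count was 14. The limit does not hold for the 17 genes without a row, whose counts are unknown. Eef2kmt, the lowest member by CPM at a mean of 0.613, ranked 9408 of 9822 genes, so few genes of the tables lay below it. All 10 platelet-defining genes of a marker list (such as Itga2b, Pf4 and Gp9) were present, at a median of 2437 CPM. Red cell and reticulocyte marker genes, 12 of 17 in the tables, took 4.87%, 0.523% and 0.682% of counts in replicates 1, 2 and 3, and leukocyte marker genes, 14 of 18 in the tables, took 0.146%, 0.169% and 0.164%. Replicate 1 therefore stood apart in red cell RNA, and its part in factor levels was not tested beyond the values given below. Most of the leukocyte share came from Lyz2 alone, at 1286, 1515 and 1361 CPM, and 11 of the 14 leukocyte genes were highest in replicate 3. In such bulk samples fewer cells of a type and less RNA per cell cannot be told apart.

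The factor RNAs took 0.497%, 0.519% and 0.567% of counts in replicates 1, 2 and 3, with a mean of 0.528% ± 0.0360 (SD, n = 3). The 95% intervals by the Clopper-Pearson method ran from 0.494% to 0.4997%, from 0.516% to 0.521% and from 0.564% to 0.570%, for counting error only. The share was highest in replicate 3 and the counting intervals did not overlap. The mean level was very uneven among members: the 5 highest (Eif1, Pabpc1, Eef1a1, Eif4g2 and Eef2) held 68.6% ± 0.812 of all factor counts, and the 10 highest 86.0% ± 1.10. Of the 67 members 9 were at 100 CPM or more, 21 at 10 to 100 CPM, 33 at 1 to 10 CPM and 4 below 1 CPM. The median member was at 8.95 CPM, against 3.86 CPM for all genes of the tables, and at 3.71 CPM per kilobase, against 1.49.

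**Figure D1:**
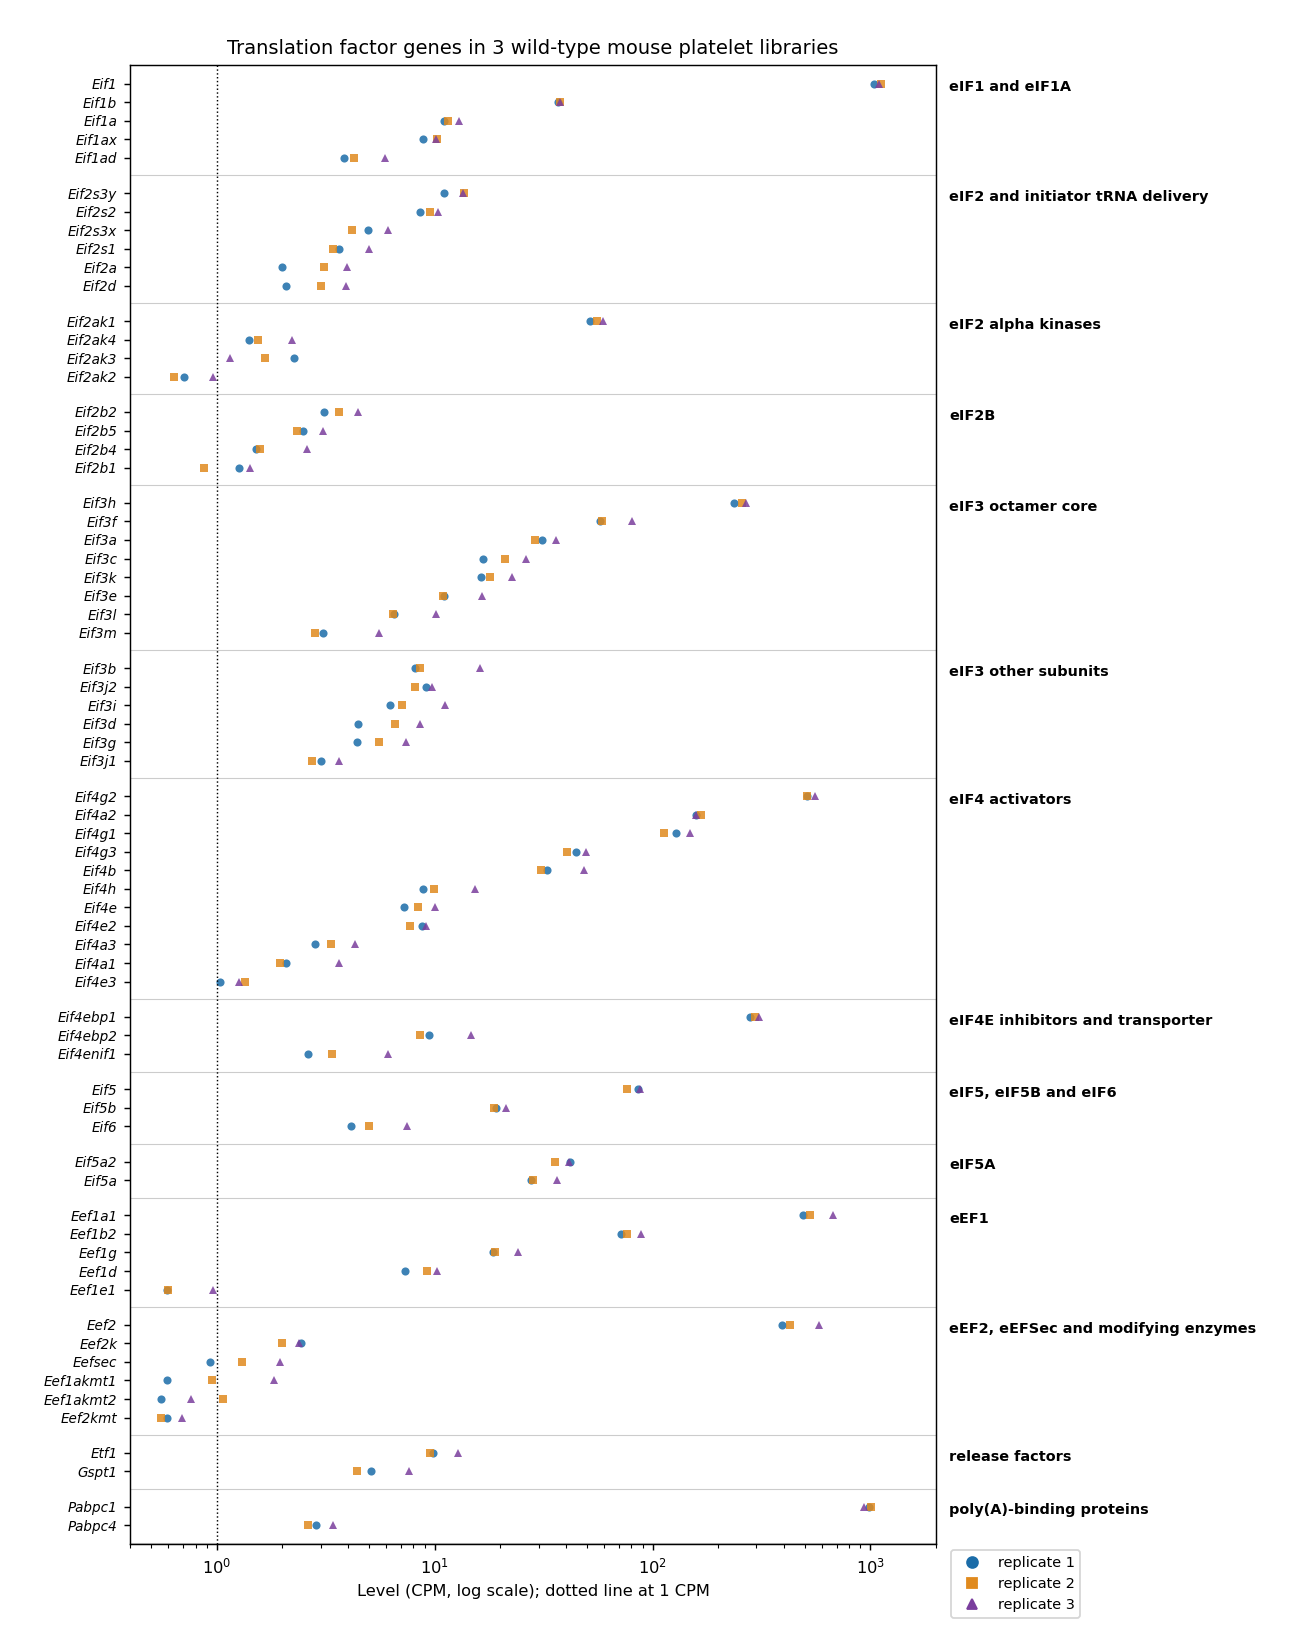
Level of each of the 67 translation factor genes (rows, grouped by factor class) in CPM on a log axis, with 1 point per replicate and a dotted line at 1 CPM. Eif1, Eif2ak1, Eif3h, Eif4ebp1, Eef1a1, Eef2 and Pabpc1 lie far above the other genes of their classes, and for 57 of the 67 genes the triangle of replicate 3 is the rightmost.

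At 1 CPM or more in all 3 libraries, 60 of the 67 members counted as detected, against 77.7% of all genes of the tables. The 7 that did not were Eif2ak2, Eif2b1, Eef1e1, Eefsec, Eef1akmt1, Eef1akmt2 and Eef2kmt. Eef1akmt1, Eef1akmt2 and Eef2kmt encode methyltransferases that modify the elongation factors, and Eefsec encodes the elongation factor for selenocysteine. Of the 17 genes outside the tables, 7 were poly(A)-binding protein genes (Pabpc1l, Pabpc1l2a, Pabpc1l2b, Pabpc2, Pabpc4l, Pabpc5 and Pabpc6). Others were paralogs of genes in the tables: Eef1a2, the elongation factor copy of muscle and neurons, Eif4e1b, the eRF3 copy Gspt2 and the eIF4E inhibitor gene Eif4ebp3. The remaining 6 were Eif2b3, Eif4a3l1, Eef1akmt3, Eef1akmt4, Eef1aknmt and the readthrough gene Eef1akmt4-ece2. Eif2b3 encodes the gamma subunit of eIF2B.

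How far each level can be trusted depends on copies of the gene elsewhere in the genome, because how reads with more than 1 matching place were counted is not given in the sources used here. Of the 50-base words in the members' GENCODE M21 transcripts, a median of 3.77% per member also occurred, on either strand, in a transcript of another gene. For 36 members the share was under 5% and for 14 it was 20% or more. The highest shares were 91.9% for Eif3j2 (90.8% with Eif3j1), 69.3% for Pabpc4, 65.3% for Eif4a1 (64.9% with the pseudogene Eif4a-ps4), 64.3% for Eef1g, 54.8% for Eif3j1 and 53.6% for Eef1a1. The levels of these 6 genes are uncertain. Neighbouring genes overlap too: Eif2ak1 shared 10.3% of its words with Aimp2, Eif5b 18.2% with Rev1 and Eif1ad 15.1% with Banf1, and the strand setting of the counting is not given. An alternative level was computed by counting only unshared words as length, as if every read of a shared word had been lost. It was added after seeing the data and is called the unshared-length value below. It is not a bound: had shared reads been counted, a member could hold reads of its copies. The share covers all GENCODE transcripts but was applied to the deposited length. These can differ: Eif1ax had 5123 distinct words and 926 deposited bases, and Eif4ebp2 5777 and 1786.

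Among the factors that scan for the start codon, Eif1 stood far above its partners. Eif1, which encodes the guardian of start codon choice, was at 1041, 1118 and 1098 CPM in replicates 1, 2 and 3, or 895 ± 33.1 CPM per kilobase (SD, n = 3). Its copy Eif1b was at 36.9, 37.7 and 37.8 CPM. Per kilobase Eif1b was 21.9 times lower than Eif1 (log2 ratio -4.45 ± 0.04). eIF1A, which binds beside eIF1, is encoded by Eif1a and, on chromosome X, Eif1ax. Eif1a gave 11.1, 11.5 and 12.9 CPM, and Eif1ax, of shorter deposited length (926 against 2879 bases), 8.82, 10.2 and 10.1 CPM. Per kilobase the X-linked copy was 2.56 times higher (log2 ratio of Eif1a to Eif1ax -1.36 ± 0.10). By reads alone Eif1a was slightly higher (0.28). In GENCODE transcripts Eif1ax had more distinct words (5123) than Eif1a (4354). The order per kilobase therefore rests on the deposited lengths and is uncertain. The level of Eif1 per kilobase was 217 times that of Eif1a (log2 ratio 7.76 ± 0.10), a ratio chosen after its values were seen. Eif1ad, a gene of the eIF1A domain type, was lowest in the class at 3.82, 4.25 and 5.90 CPM.

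The 4 subunit genes of eIF2, which delivers the initiator tRNA, lay within a range of 5.65 times per kilobase, 2 of them above the member median and 2 below. The alpha subunit gene Eif2s1, whose product is the target of the stress kinases, was at 3.63, 3.41 and 4.98 CPM, and the beta subunit gene Eif2s2 at 8.60, 9.49 and 10.3 CPM. The gamma subunit is encoded on both sex chromosomes of the male mouse. In GRCm38.p6 coordinates Eif2s3y on Y (1010562 to 1049134) gave 11.01, 13.7 and 13.4 CPM, and Eif2s3x on X (94188709 to 94212651) gave 4.97, 4.17 and 6.09 CPM, with no overlap. Per kilobase the Y copy was 5.07 times higher (log2 ratio 2.34 ± 0.32), and 3.27 times higher by the unshared-length value, since 35.5% of the words of Eif2s3x also occur in Gm2223. The row of Gm2223 was itself at 5.49, 4.45 and 6.40 CPM, and whether it took reads of Eif2s3x was not tested. In the same way Eif2s2 shared 21.9% of its words with Gm9892, which was at 9.38, 8.97 and 10.8 CPM. With X and Y copies summed, gamma was at 8.60 ± 0.880 CPM per kilobase, against 1.27 for Eif2s1 and 3.77 for Eif2s2. The alternative carriers of initiator tRNA, Eif2a and Eif2d, were at 3.03 and 3.00 CPM on average, and both were lowest in replicate 1 and highest in replicate 3.

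The start sites of the gamma subunit pair are shown for comparison of the X and Y copies, together with that of Eif3f, an eIF3 subunit gene at a higher level. The windows run from 60 bases before to 20 bases after a RefSeq transcript start in GRCm38.p6, read 5′ to 3′ on the gene's strand. Capitals mark a run of C and T that opens with C within 5 bases of the start, the form of the terminal oligopyrimidine (TOP) tract known from mRNAs of the translation machinery, and in Eif3f also CCAAT.
Eif2s3x, chrX:94212632-94212711, minus strand: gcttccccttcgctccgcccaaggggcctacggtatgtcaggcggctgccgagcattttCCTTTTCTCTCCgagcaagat
Eif2s3y, chrY:1010535-1010614, plus strand: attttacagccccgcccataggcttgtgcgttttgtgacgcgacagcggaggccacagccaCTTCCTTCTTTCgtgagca
Eif3f, chr7:108934355-108934434, plus strand: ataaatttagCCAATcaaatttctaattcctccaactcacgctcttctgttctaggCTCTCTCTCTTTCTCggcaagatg
All 3 starts have such a tract. A C followed by at least 4 bases that are C or T, searched on the gene's strand only and opening within 5 bases of the start, was found for 14 of the 53 members with an entry in the promoter table (26.4%) and for 24.2% of genes of the tables, 2 shares that lie close together.

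Among the kinases that switch eIF2 off under stress, Eif2ak1 was far above the others. This gene encodes HRI, the haem-regulated kinase known from red cell precursors, and was at 51.6, 55.4 and 59.6 CPM. Eif2ak3 (PERK, the kinase of the endoplasmic reticulum) was at 2.26, 1.67 and 1.15 CPM, Eif2ak4 (GCN2, which senses uncharged tRNA) at 1.41, 1.55 and 2.22 CPM, and Eif2ak2 (PKR, which senses double-stranded RNA) at 0.704, 0.635 and 0.957 CPM. Per kilobase Eif2ak1 was 56.7 times higher than Eif2ak3 (log2 ratio of Eif2ak3 to Eif2ak1 -5.83 ± 0.57), 64.0 times higher than Eif2ak4 and 112 times higher than Eif2ak2. By plain CPM Eif2ak1 was lowest in replicate 1, the library with the most red cell RNA. There the erythroid gene Alas2 was at 566 CPM against 27.9 and 59.6 CPM in replicates 2 and 3. Both genes were higher in replicate 3 than in replicate 2 by plain CPM. The order depends on scaling: for Eif2ak1 the log2 ratio of replicate 3 to replicate 1 was 0.21 by plain CPM and 0.01 with TMM scaling. The part of red cell RNA in the level of Eif2ak1 was not tested.

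eIF2B, the exchange factor that recharges eIF2 with GTP, had the lowest total of the 14 classes, at 9.45 ± 1.796 CPM summed over 4 genes. Eif2b2 was at 3.114, 3.65 and 4.44 CPM, Eif2b5, the catalytic subunit gene, at 2.48, 2.34 and 3.06 CPM, and Eif2b4 at 1.52, 1.59 and 2.60 CPM. The lowest, Eif2b1, was at 1.26, 0.873 and 1.42 CPM, from 34, 22 and 37 counts. Per kilobase the 4 genes lay within a range of 3.89 times.

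eIF3, the largest initiation factor, is built from an octamer of a, c, e, f, h, k, l and m and further subunits b, d, g, i and the loosely bound j. The levels of its genes were far from even. Eif3h was at 235, 257 and 269 CPM, and Eif3f, its partner of the MPN type, at 57.2, 58.8 and 80.4 CPM. The scaffold gene Eif3a followed at 31.3, 28.8 and 35.9 CPM. The lowest gene of the octamer was Eif3m at 3.08, 2.82 and 5.55 CPM. Per kilobase Eif3h stood at 207 ± 13.8, Eif3f at 43.5 ± 8.58 and Eif3k, a small subunit, at 24.6 ± 4.31 CPM per kilobase. The other 9 of the genes a to m lay between 3.10 (Eif3m) and 8.32 (Eif3e), and 9 of the 12 genes a to m were within 3-fold of their median of 6.76 CPM per kilobase. Eif3h was 68.3 times Eif3m (log2 ratio 6.09 ± 0.46; 58.2 times by the unshared-length value) and 4.80 times Eif3f (2.26 ± 0.20), ratios chosen after their values were seen. Eif3h was highest in every library.

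**Figure D2:**
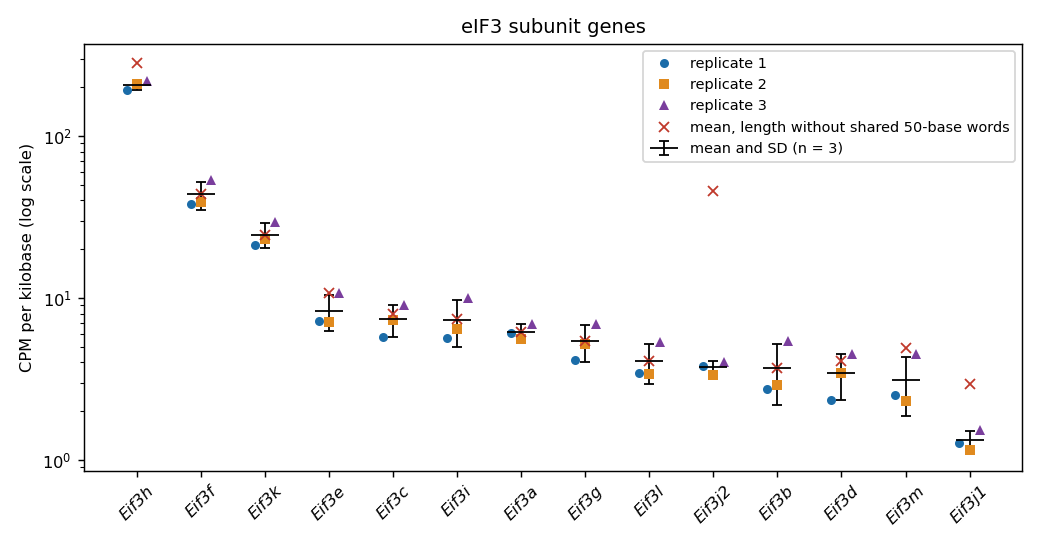
Level per kilobase of the 14 eIF3 subunit genes on a log axis, with 1 point per replicate, a bar and whiskers for mean and SD (n = 3), and a cross for the mean with shared 50-base words left out of the length. Eif3h (207 CPM per kilobase) stands above Eif3f (43.5) and Eif3k (24.6) and the means of the others lie below 10, and the cross departs most from the bar for Eif3j2.

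Among the subunits outside the octamer, Eif3b had the highest mean by reads, at 8.16, 8.58 and 16.1 CPM. Eif3j2 gave 9.12, 8.10 and 9.77 CPM and Eif3i 6.23, 7.11 and 11.1 CPM, and Eif3j1 was lowest at 3.00, 2.74 and 3.64 CPM. The pair Eif3j1 and Eif3j2 differed by 2.78 times per kilobase in favour of Eif3j2, but with so many words in common the division of reads between them is uncertain. In Eif3b, Eif3i, Eif3d and Eif3g the level was 1.67 to 1.97 times as high in replicate 3 as in replicate 1. In Eif3j1 it was 1.21 times and in Eif3j2 1.07 times as high. Genes of the octamer overlapped with these: Eif3h was at 1.14 and Eif3a at 1.15 times, and Eif3m lay between Eif3g and Eif3b. The other octamer genes ran from 1.39 (Eif3k) to 1.58 times (Eif3c). For all genes of the tables the median log2 ratio was 0.25. No difference between octamer and other subunits was tested.

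The highest eIF4 gene was Eif4g2. It encodes DAP5, a scaffold that lacks the eIF4E-binding part and is known from cap-independent initiation, and was at 512, 514 and 554 CPM, whereas Eif4g1, the scaffold of the cap-binding complex, was at 128, 112 and 148 CPM and Eif4g3 at 44.7, 40.5 and 49.7 CPM. The 3 genes kept this order in every library without overlap. Per kilobase Eif4g2 (chromosome 7) was 2.85 times higher than Eif4g1 (log2 ratio of Eif4g1 to Eif4g2 -1.51 ± 0.15) and 9.55 times higher than Eif4g3 (-3.26 ± 0.10). These 3 genes share almost no words with others.

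Of the eIF4A helicase genes Eif4a2 was by far the highest. Eif4a2 (GRCm38.p6 chromosome 16, 23107468 to 23114132) was at 158, 166 and 159 CPM, and Eif4a1 (chromosome 11, 69666936 to 69672423), the form known as predominant in most dividing cells, at 2.08, 1.95 and 3.64 CPM, from 56, 49 and 95 counts. Eif4a3, the helicase of the exon junction complex, was at 2.82, 3.33 and 4.33 CPM. Per kilobase Eif4a2 was 37.7 times higher than Eif4a1 (log2 ratio of Eif4a1 to Eif4a2 -5.24 ± 0.50) and 21.1 times higher than Eif4a3 (-4.40 ± 0.31). Because Eif4a1 shares many words with its pseudogene, the excess over it was 15.2 times by the unshared-length value, the same direction. The start regions of both genes are shown because the paralogs differ so much in level, in the same window as before, with capitals for CCAAT. Eef2, an elongation factor gene at a high level, is added as a start with TATAAA, also in capitals. The search for a tract of C and T described above, limited to 5 bases on each side of the RefSeq start, found none for Eef2. The printed window of Eef2 ends in a run of C and T that lies past that limit. Whether transcripts begin there was not tested.
Eif4a2, chr16:23107408-23107487, plus strand: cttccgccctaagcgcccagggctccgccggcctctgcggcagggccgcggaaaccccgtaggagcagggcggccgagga
Eif4a1, chr11:69672404-69672483, minus strand: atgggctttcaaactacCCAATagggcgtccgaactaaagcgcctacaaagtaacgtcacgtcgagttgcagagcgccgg
Eef2, chr10:81176571-81176650, plus strand: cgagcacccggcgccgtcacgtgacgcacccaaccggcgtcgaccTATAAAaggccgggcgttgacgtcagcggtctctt
Searched on both strands of the whole 300-base promoter, CCAAT was found for 16 of 53 members (30.2%) and 42.7% of genes of the tables, TATAAA for 6 (11.3%) and 8.72%, CCGGAAG, the letters of an ETS site, for 18 (34.0%) and 21.9%, and AGATAA, the letters of a GATA site, for 1 (1.89%) and 8.03%. The motifs were chosen with the levels known, and these matches are a description of letters only.

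The gene of the cap-binding protein was far below that of its inhibitor 4E-BP1. Eif4e was at 7.27, 8.38 and 10.1 CPM, and Eif4e2, which encodes a cap-binding protein that represses translation, at 8.79, 7.70 and 9.12 CPM. By reads the pair was level, and per kilobase Eif4e was 1.71 times higher (log2 ratio 0.77 ± 0.23). Eif4e3 was lowest of the class at 1.04, 1.35 and 1.26 CPM. Eif4ebp1, whose product mTORC1 inactivates by phosphorylation, was at 280, 296 and 307 CPM. Its copy Eif4ebp2 was at 9.38, 8.61 and 14.7 CPM, so that Eif4ebp1 was 50.3 times higher per kilobase (log2 ratio 5.65 ± 0.37). Eif4ebp1 (chromosome 8) was also 101 times higher per kilobase than Eif4e itself (6.66 ± 0.17), a ratio chosen after its values were seen. Eif4enif1, which encodes the transporter of eIF4E into the nucleus, was at 2.63, 3.37 and 6.13 CPM. Of the helicase cofactors Eif4b was at 32.9, 30.8 and 48.4 CPM and Eif4h at 8.86, 9.96 and 15.3 CPM, both highest in replicate 3.

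**Figure D3:**
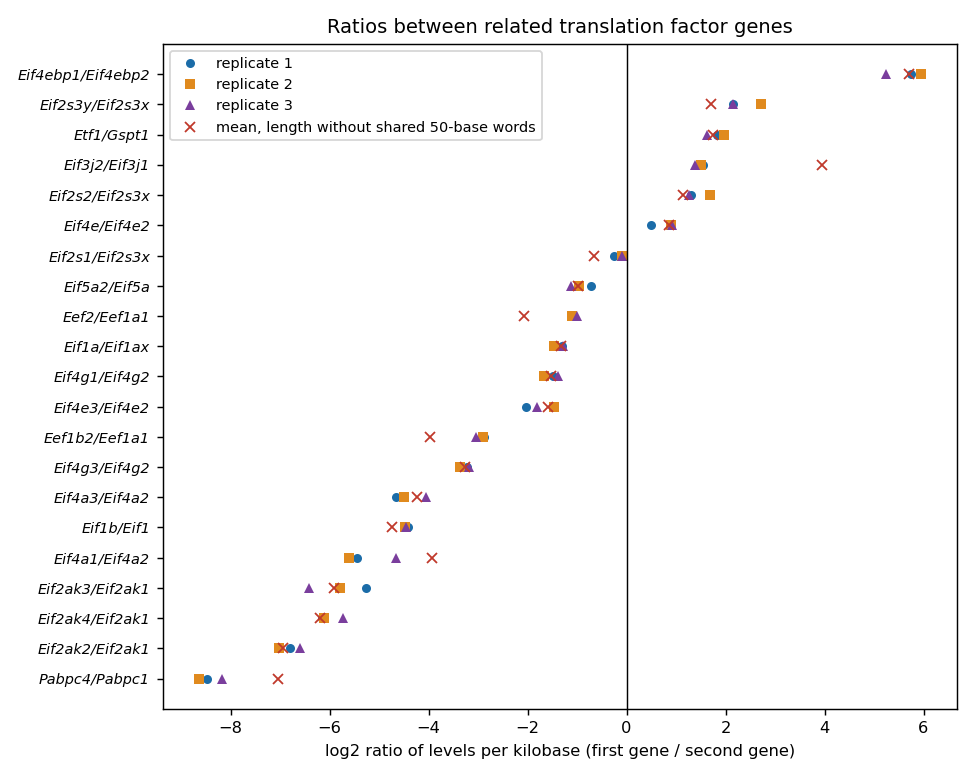
Log2 ratio of levels per kilobase for 21 pairs of related factor genes, with 1 point per replicate and a cross for the mean with shared 50-base words left out of the length; the line at 0 marks equal levels. All 21 pairs keep the sign of their ratio in the 3 libraries, from Pabpc4 to Pabpc1 at -8.43 to Eif4ebp1 to Eif4ebp2 at 5.65.

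Of the 24 pairs of related genes fixed for comparison 21 had both genes in the tables, and 18 of these differed by more than 2-fold per kilobase. The closest was Eif2s1 to Eif2s3x, at a log2 ratio of -0.15 ± 0.09, whose mean lay within 2 SD of 0. These ratios carry no test, since flipping signs over 3 libraries gives an exact two-sided p of 0.25 at best.

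For the late steps of initiation, Eif5, which encodes the activator of GTP hydrolysis by eIF2, was at 85.3, 76.1 and 87.2 CPM. Eif5b, which joins the ribosomal subunits, was at 19.2, 18.7 and 21.2 CPM, and Eif6, whose product keeps the subunits apart, at 4.15, 5.002 and 7.51 CPM. eIF5A, the hypusine-bearing factor that helps ribosomes past difficult peptide bonds, is encoded by a pair of genes. Eif5a was at 27.8, 28.1 and 36.3 CPM and Eif5a2, known for a narrow range of tissues, at 41.7, 35.8 and 41.3 CPM. By reads Eif5a2 was 1.29 times higher, and per kilobase it was 1.91 times lower (log2 ratio -0.93 ± 0.20), as its gene length of 4992 bases is more than that of Eif5a (2017).

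Eef1a1 and Eef2 were the highest elongation factor genes. Eef1a1 was at 491, 529 and 673 CPM and Eef2 at 391, 427 and 579 CPM. In both, replicate 3 lay above the other libraries, by 1.37 and 1.48 times over replicate 1. Per kilobase Eef1a1 was 2.11 times Eef2 (log2 ratio of Eef2 to Eef1a1 -1.08 ± 0.06), and 4.19 times by the unshared-length value. The genes of the exchange factor that recharges eEF1A were lower. Eef1b2 was at 71.5, 76.3 and 88.3 CPM, Eef1g at 18.5, 19.0 and 24.1 CPM and Eef1d at 7.30, 9.25 and 10.3 CPM. Eef1e1, whose product belongs to the multi-tRNA synthetase complex, was lowest at 0.593, 0.595 and 0.957 CPM. Eef2k, which encodes the kinase that inhibits eEF2, was at 2.45, 1.98 and 2.37 CPM, Eefsec at 0.927, 1.31 and 1.95 CPM, Eef1akmt1 at 0.593, 0.953 and 1.84 CPM and Eef2kmt, the lowest member by CPM, at 0.593, 0.556 and 0.689 CPM. Per kilobase the lowest member was Eif2ak2, at 0.177 against 0.286 CPM per kilobase for Eef2kmt.

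Both termination genes lay below the member median per kilobase, at 2.90 CPM per kilobase for Etf1 and 0.837 for Gspt1. Etf1, which encodes the stop codon reader eRF1, was at 9.86, 9.49 and 12.9 CPM, and Gspt1, which encodes its GTPase partner eRF3, at 5.12, 4.41 and 7.62 CPM. Per kilobase Etf1 was 3.50 times higher (log2 ratio 1.81 ± 0.17). Poly(A)-binding protein RNA was almost wholly Pabpc1, at 981, 1006 and 936 CPM. Pabpc4 was at 2.85, 2.62 and 3.41 CPM, 345 times lower per kilobase (log2 ratio -8.43 ± 0.24) and 131 times lower by the unshared-length value. Pabpc1 was lower in replicate 3 than in both other libraries, and Eif2ak3 was the other member of which this held.

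Summed by class, eIF1 and eIF1A genes held 21.8% ± 1.17 of factor counts, poly(A)-binding protein genes 18.6% ± 1.77, eIF4 genes other than inhibitors 17.7% ± 0.473 and eEF1 genes 12.7% ± 1.17 (SD, n = 3). The class of eEF2 and elongation factor enzymes held 8.88% ± 1.28, the eIF3 octamer 7.87% ± 0.323 and the eIF4E inhibitors 5.87% ± 0.0835. Genes of eIF2 (0.704%), release factors (0.310%) and eIF2B (0.178%) were at the other end. The median level per kilobase of a class was highest for the pair of poly(A)-binding genes (173 CPM per kilobase) and the eEF1 genes (13.1). The first is the midpoint of Pabpc1 at 345 and Pabpc4 at 0.981 CPM per kilobase, so neither gene lay near it. The median was lowest for the eIF2 alpha kinases (0.353) and the class of eEF2 and its enzymes (0.631), where Eef2 at 150 CPM per kilobase stood alone above its modifying enzymes.

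No member was called as more variable between libraries than genes of its level. The median coefficient of variation over the libraries was 17.5% for members and 16.3% for all genes, and 4.59% for the 9 members at 100 CPM or more against 5.28% for all genes of that level. In the edgeR quasi-likelihood test of spread, with Benjamini-Hochberg adjustment over all 8289 genes tested, 0 of 63 members tested were called at an adjusted p under 0.05, against 0.229% of genes. At an unadjusted p under 0.05 there were 2 members, against 4.29% of genes, and DESeq2 marked 0 members as dispersion outliers, against 0.591% of genes. The 5 members with the smallest p were Eif3b, Eif4enif1, Eef1akmt1, Eif2ak3 and Eif4b, each at an adjusted p of 0.982 by edgeR, and the 2 under 0.05 before adjustment were Eif3b and Eif4enif1. Of these Eif3b, Eif4enif1, Eef1akmt1 and Eif4b were highest in replicate 3 and Eif2ak3 was lowest there. In simulated data the same test at this number of libraries found 0 of 50 genes raised 2-fold in 1 library and 23 of 50 raised 4-fold. These genes were drawn from all 8289 and simulated at the dispersion of the trend by level. A 2-fold difference in 1 library was thus not found in such genes, and what was detectable at 100 CPM or more was not simulated apart.

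As a group, members leaned to replicate 3. Of the 67, 57 had their highest CPM there, against 68.7% of all genes, and the median log2 ratio of replicate 3 to replicate 1 was 0.44, against 0.25 for all genes. With red cell genes left out of the totals 54 members were highest there, against 64.2% of all genes. With TMM scaling 43 were highest in replicate 3, against 45.3% of genes, and the medians were 0.25 and 0.06. The 9 members at 100 CPM or more had a median of 0.13 by plain CPM and -0.07 with TMM scaling, against 0.04 and -0.16 for all genes of that level. The 58 other members were at 0.47 and 0.27, against 0.29 and 0.09 for all genes under 100 CPM. Of the 9, Eif1, Eif4g2, Eif4ebp1, Eif3h and Eif4a2 turned from above 0 to below 0 with TMM scaling. Eef1a1 (0.45 and 0.26), Eef2 (0.57 and 0.37) and Eif4g1 (0.21 and 0.01) were above 0 on both scales, and Pabpc1 (-0.07 and -0.26) was below 0 on both. The leukocyte marker genes leaned the same way, with 11 of 14 highest in replicate 3 and a median log2 ratio of 0.56. By edgeR 0 of 13 tested were called, against 0.229% of all genes, and 5 had an unadjusted p under 0.05, against 4.29%. The 3 highest of the list were Lyz2 at 1286, 1515 and 1361 CPM, Cd74 at 113, 101 and 167 CPM and Cd79a at 12.01, 12.8 and 21.9 CPM. The part of such cells in the factor levels was not tested.

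**Figure D4:**
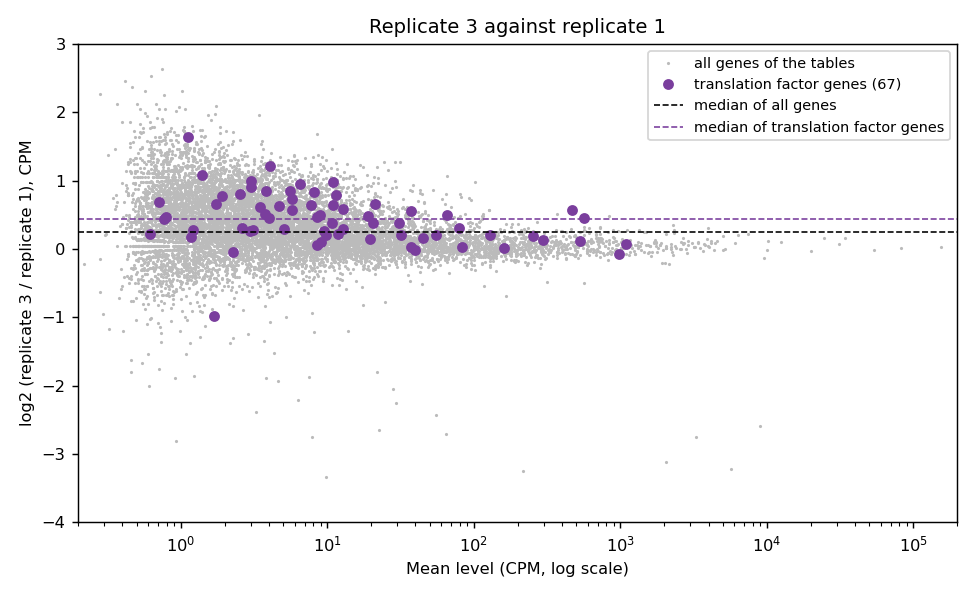
Log2 ratio of CPM in replicate 3 to replicate 1 (vertical) against mean CPM on a log axis (horizontal), for all genes of the tables (grey) and the 67 translation factor genes (purple), with dashed lines at the medians of 0.25 and 0.44. Most members lie above 0, those of high level close to it except Eef1a1 and Eef2, and 1 gene lies outside the vertical range shown.

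The genes known for TOP tracts, whose translation mTORC1 controls, were Eef1a1, Eef1b2, Eef1d, Eef1g, Eef2, Eif3e, Eif3f, Eif3h, Eif4b and Pabpc1 in a list chosen from general knowledge. Their median was 42.1 CPM per kilobase, against 2.97 for the other 57 members, and the lowest was Eef1d at 3.14. From replicate 1 to replicate 3 the median log2 ratio was 0.47 for these 10 and 0.39 for the others, and 9 of 10 and 54 of 57 were above 0. With TMM scaling the medians were 0.28 and 0.19, and 8 of 10 and 43 of 57 were above 0. No difference between these groups was tested. Of the 10 genes 5 had a promoter sequence, and the search above found a tract in 2 of them (40.0%), Eef1a1 and Eif3f, against 24.2% of genes of the tables. A tract further from the RefSeq start than the search reached, as in the printed window of Eef2, is not counted.

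Of the genes that regulate the factors, a few were at high levels. Among 28 of 32 partner genes in the tables, 25 were detected and the median was 3.53 CPM. Paip2, which encodes a protein that displaces the poly(A)-binding protein from mRNA, was at 1275, 1306 and 1209.5 CPM, or 887 CPM per kilobase, above the 345 of Pabpc1 itself. Tpt1, a TOP mRNA, was at 109 ± 3.22 CPM and the ribosome-binding Serbp1 at 35.3 ± 6.43 CPM. In the mTORC1 and cap signalling list 17 of 20 genes were in the tables, all were detected and the median was 6.21 CPM; the phosphatase subunit gene Ppp2ca (78.7 ± 6.05 CPM) and the eIF4E kinase genes Mknk2 (48.6 ± 9.89) and Mknk1 (25.9 ± 2.29) were highest.

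In the integrated stress response list, the pathway downstream of the eIF2 kinases, 15 of 18 genes were in the tables and 12 were detected, at a median of 11.6 CPM. The highest were the phosphatase gene Ppp1cb (607 ± 22.4 CPM), the transcription factor gene Atf4 (344, 344 and 368 CPM) and the phosphatase gene Ppp1ca (222 ± 20.4 CPM). Ddit3, a target of ATF4 named here after its values were seen, was at 90.3, 94.5 and 98.5 CPM. In the edgeR test of spread 0 genes of these 3 lists were called, with 17, 26 and 12 tested for the signalling, partner and stress lists and 0, 1 and 1 at an unadjusted p under 0.05. Over all genes 0.229% were called and 4.29% had an unadjusted p under 0.05. Of the red cell list 7 of 11 genes tested were called, but with a robust prior the test called 0 genes of the tables and without replicate 1 it called 1.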

How the data were processed

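Per the labels' protocols, platelet RNA was purified by a Norgen kit and sequenced as Illumina TruSeq RNA v2 libraries. The deposited tables, made by the authors, give raw counts per Entrez gene and a gene length, 1 table per library. Per the submitters' processing notes the genome was mm10 and the tools edgeR 3.11.5, featureCounts, Subread and CASAVA 1.8.2. Annotation, strand and multi-mapping settings: not given in the sources used here. Entrez numbers were paired with symbols by RefSeq for GRCm38.p6 (9636 genes) and GENCODE M21 (2); 184 had none. CPM used the plain total of counts, and levels per kilobase the deposited length. Ratios of genes used a prior count of 2. The spread test fitted an intercept with TMM factors of 0.954, 0.958 and 1.09 in edgeR 4.0.16 (limma 3.58.1, R 4.3.3) to genes whose mean CPM was at least 1. Each quasi-likelihood dispersion (2 residual degrees of freedom) was compared with its trended prior by an upper-tail F probability. It was tested on simulated data. DESeq2 1.42.0, Python 3.11.15, NumPy 2.4.6, pandas 2.3.3, SciPy 1.17.1 and matplotlib 3.10.9 were also used. Promoter sequences are from RefSeq, GRCm38.p6; 53 of 67 members matched. The members, classes, lists and pairs were chosen with earlier results of these data known. Per-library values were printed for the 3 highest and the lowest genes of each class, all genes of pairs and the 5 smallest p values, and for other lists the 3 highest genes; other genes so given were picked afterwards. Alternatives were other detection minimums, scalings, filters, priors, lengths and leaving out each replicate.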

Additional observations from a re-analysis of the deposited data

How the results depend on the processing

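No paired analysis was possible because there is 1 group. Leaving out a replicate gave 60 to 61 detected members, a share of counts of 0.508% to 0.543% and a median of 8.28 to 9.22 CPM. Detection fell to 38 members at 5 CPM, and totals without the 10 highest genes gave a share of 0.930% and a median of 15.8 CPM. The spread test called 0 members under each alternative run, but the number of genes called, 19, was 11 with plain totals, 11 with a mean CPM of 5 as filter, 0 with a robust prior, 12 without red cell and leukocyte genes, 49 by DESeq2 and 1 to 32 without a replicate (1 without replicate 1); the cause was not tested. On a log2 scale against all members, without division by length, class medians became 0.40 for eIF1 and eIF1A, -0.98 for eIF2, -2.39 for eIF2 kinases, 1.17 for the eIF3 octamer, -0.29 for other eIF3 genes, 0.28 for eIF4E inhibitors, 1.14 for eIF5, eIF5B and eIF6, 1.97 for eIF5A, 1.20 for eEF1, -2.83 for eEF2 and its enzymes and -0.12 for release factors. By unshared length they became -1.20 for eIF2, 1.18 for the eIF3 octamer, 0.20 for eIF4 genes and 3.16 for eEF1. For other eIF3 genes, whose median lies next to that of all members, the sign turned to 0.21 by unshared length and to between 0.035 and 0.072 without a replicate, and the octamer was at 1.07 to 1.15 without a replicate. Pair ratios turned sign by reads alone for Eif1a to Eif1ax (0.28), Eif4e to Eif4e2 (-0.0029) and Eif5a2 to Eif5a (0.37). The sign per kilobase in these pairs rests on the deposited gene lengths. By reads the others that moved were Eif1b to Eif1 (-4.85), Eif2s3y, Eif2s1 and Eif2s2 to Eif2s3x (1.32, -0.34 and 0.90), Eif2ak2, Eif2ak3 and Eif2ak4 to Eif2ak1 (-6.06, -5.02 and -4.97), Eif4a1 and Eif4a3 to Eif4a2 (-5.99 and -5.52), Eif4e3 to Eif4e2 (-2.74), Eif4g1 and Eif4g3 to Eif4g2 (-2.03 and -3.55), Eif4ebp1 to Eif4ebp2 (4.79), Eef2 and Eef1b2 to Eef1a1 (-0.28 and -2.83) and Etf1 to Gspt1 (0.93). By unshared length they were Eif1b to Eif1 (-4.73), Eif2s3y, Eif2s1 and Eif2s2 to Eif2s3x (1.71, -0.65 and 1.14), Eif3j2 to Eif3j1 (3.95), Eif4a1 to Eif4a2 (-3.93), Eef2 and Eef1b2 to Eef1a1 (-2.07 and -3.97) and Pabpc4 to Pabpc1 (-7.03). No pair moved by more than its SD without a replicate or with a prior count of 0.5.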
